A study of Mus musculus with 4 samples.

Results

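A population of macrophages that carried much Apoe and Ms4a7 RNA and no Sall1 RNA was examined in single-cell RNA libraries of CD11b+ cells from the cortex of wild-type mice. The mice had been given adeno-associated virus in the cortex on postnatal day 0 or 1, coding either for Hevin (a secreted matricellular protein made by astrocytes, the product of Sparcl1) or for membrane-targeted mCherry (mCherry-CAAX, the control), both behind GfaABC1D, a promoter that limits expression to astrocytes. On postnatal day 15 CD11b+ cells (CD11b is the integrin alpha chain of microglia and other myeloid cells) were taken on magnetic columns, with inhibitors of transcription and translation present, and made into PIPseq libraries, which count each captured RNA molecule once as a unique molecular identifier (UMI). Each treatment had 2 libraries, here called replicates as in the labels, which do not say how many animals each holds. All 4 libraries therefore share the wild-type background, the surgery, the viral vector, the promoter and the dissociation inhibitors, and the treatments are labelled by the protein that the astrocytes were made to express.

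A cell belonged to the population if Apoe made up at least 1.5% of its UMIs, it held at least 1 Ms4a7 UMI and no Sall1 UMI, and 4 sums stayed low. These were at most 2 UMIs of the border macrophage genes Lyve1, F13a1, Cd163 and Cbr2, at most 4 of the interferon-response genes Ifit2, Ifit3, Isg15, Rsad2 and Cxcl10, at most 7 of Spp1 and Gpnmb, and at most 2 of 8 genes of dividing cells. The rule took in 12106 of 61371 kept cells (19.7%), and 99.7% of them lay in the Hevin libraries. The members were chosen by these measured UMI values. The 22 genes of the rule, and the fact that the population sits in the Hevin libraries, were known when the rule was written, so both are given as description with no test.

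Macrophages of the healthy brain are of 2 main kinds. Microglia live among the neurons and arise from yolk sac precursors, and their identity depends on the transcription factor Sall1 and on TGF-beta signalling. Border-associated macrophages line the meninges, the vessels and the choroid plexus and carry Lyve1, Cd163 and Mrc1. Macrophages that enter an emptied microglial niche from blood or bone marrow are known to take on a microglia-like form while keeping low Sall1 and high Apoe and Ms4a7. Apoe is the main lipoprotein component made by brain cells, and Ms4a7 is a membrane-spanning protein of tissue macrophages.

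The libraries held 49781430 to 67832685 UMIs in 10877 to 19855 barcodes, and the median depth per barcode was 2317 UMIs in Hevin replicate 1 against 3349 to 4037 in the other 3. The cells of the population had a median depth of 2642 and 3510 UMIs in Hevin replicates 1 and 2, and of 3950.5 and 4053.5 in mCherry replicates 1 and 2. RNA of Sparcl1, summed over endothelial cells (barcodes with at least 6 UMIs of Cldn5, Flt1, Slco1a4 and Ptprb), gave levels of 803 and 1002 CPM (UMIs scaled to a common depth) for mCherry and of 890 and 777 CPM for Hevin. In Apoe-high macrophages of the Hevin libraries Sparcl1 gave 41.7 and 28.1 CPM. Whether the virus's transcript was counted is not given, so the labels could not be checked on the targeted gene. Of 21 barcodes found in more than 1 library, 7 involved a cell of the population. The libraries also differed in sex-linked RNA, within and across treatments. Xist stood at 1.13 and 1266 CPM in the population of Hevin replicates 1 and 2 and at 425 and 868 in mCherry replicates 1 and 2, and in microglia at 1.22 and 1244 with Hevin and 559.9 and 1087 with mCherry. Uty, from the Y chromosome, stood in microglia at 35.6 and 1.42 CPM with Hevin and 22.4 and 0.872 with mCherry. The part of sex in the results was not tested.

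Apoe-high macrophages made up 38.6% of the kept cells in Hevin replicate 1 (7582 of 19653, 95% exact Clopper-Pearson interval 37.9% to 39.3%) and 34.4% in Hevin replicate 2 (4484 of 13036, 33.6% to 35.2%). In the mCherry libraries they made up 0.135% (24 of 17833, 0.0862% to 0.200%) and 0.147% (16 of 10849, 0.0843% to 0.239%). The intervals cover counting error alone. The groups lay far apart and each pair of replicates lay close, but 2 libraries against 2 cannot give a two-sided exact permutation p below 0.333, and no test was made. Microglia, taken as cells with a Sall1 UMI, under 1.5% Apoe and the same 4 upper limits, were 13.8% and 27.9% of cells with Hevin, 52.1% and 61.6% with mCherry. Sall1 was sparse. With these cells thinned to 1000 UMIs, it was still found in 51.9% in Hevin replicate 1 and in 41.8% and 40.1% with mCherry. The microglial shares thus also depend on depth, which was lowest in Hevin replicate 1. How far depth sets them was not tested. Border macrophages were taken as Sall1-negative cells with at least 6 UMIs of Lyve1, F13a1, Cd163 and Cbr2. They were held to the same limits on the interferon, the Spp1 and Gpnmb, and the division sums. Border macrophages were 4.31% and 5.33% of the Hevin libraries against 5.47% and 5.95% of the mCherry libraries.

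The criteria did not act alike in the 2 groups, as the plot of cells left after each criterion shows. Apoe of at least 1.5% was met by 53.8% and 45.7% of the cells in Hevin replicates 1 and 2 and by 3.27% and 3.47% in the mCherry libraries. After the Ms4a7 and Sall1 criteria, 8397 and 5072 cells were left with Hevin, against 392 and 266 with mCherry. The limit on the border macrophage sum then kept 92.7% and 91.5% of these with Hevin but 6.89% and 6.39% with mCherry. In control cortex, most cells high in Apoe, positive for Ms4a7 and without Sall1 thus held more than 2 UMIs of border macrophage genes. Without the 4 upper limits the shares were 42.7% and 38.9% with Hevin, 2.20% and 2.45% with mCherry, so the last pair rests on those limits.

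**Figure D1:**
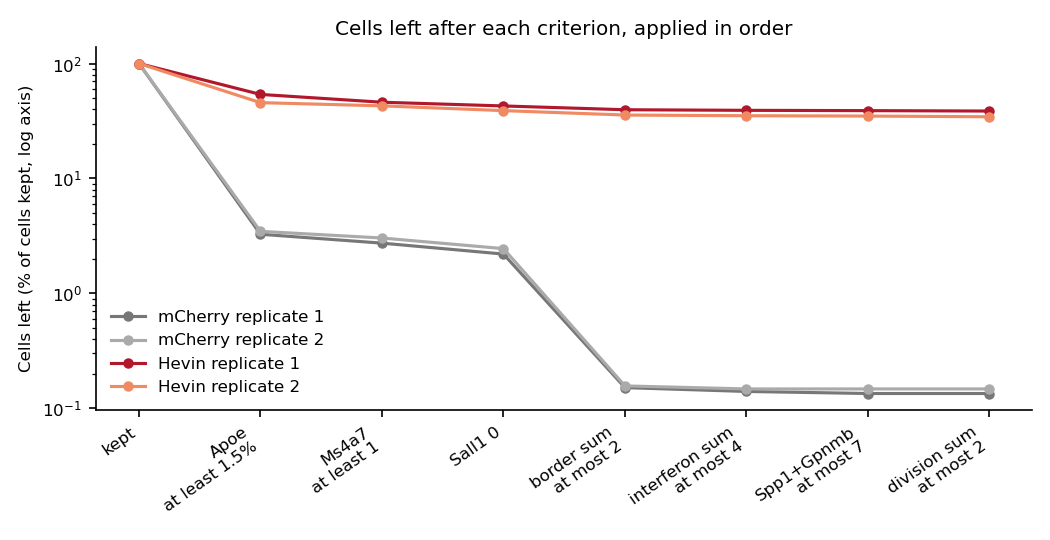
Cells left after each criterion of the rule, applied from left to right, as a percentage of the kept cells of each library (log axis); points are the 4 libraries. The mCherry libraries drop to 3.27% and 3.47% at the Apoe criterion and again at the border sum, and end at 0.135% and 0.147%, while the Hevin libraries end at 38.6% and 34.4%.

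Within the population, the median Apoe share of a cell was 3.53% of UMIs in Hevin replicate 1 and 3.68% in Hevin replicate 2, with 10% of the cells under 2.30% and 2.28% and 10% above 5.27% and 5.54%. The few mCherry cells had medians of 3.23% and 3.86%, inside that range. Among cells that met every other criterion, the Hevin libraries showed a low and a high mode of Apoe share with few cells between them, near the bound. Between 1.5% and 2% lay 363 and 243 cells, and just outside, between 1% and 1.5%, lay 193 and 90. Cells just inside carried 440 and 500 CPM of Gpr65 and those just outside 314 and 339; for P2ry12 the values were 932 and 1001 CPM inside and 1308 and 1289 outside. Cells just outside the bound thus carried Gpr65 as well, at a lower level. Ms4a7 rested on few UMIs per cell: the median was 3 in Hevin replicate 1 and 4 in replicate 2, and 1729 and 468 cells had just 1. Cells with no Ms4a7 UMI that met the rest of the rule numbered 1332 and 281 and held 477 and 424 CPM of Gpr65, near the 505 and 530.0 CPM of the population. Cells that met every criterion but had a Sall1 UMI numbered 567 and 442, with 442 and 482 CPM of Gpr65 and 1100 and 1345 CPM of P2ry12.

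**Figure D2:**
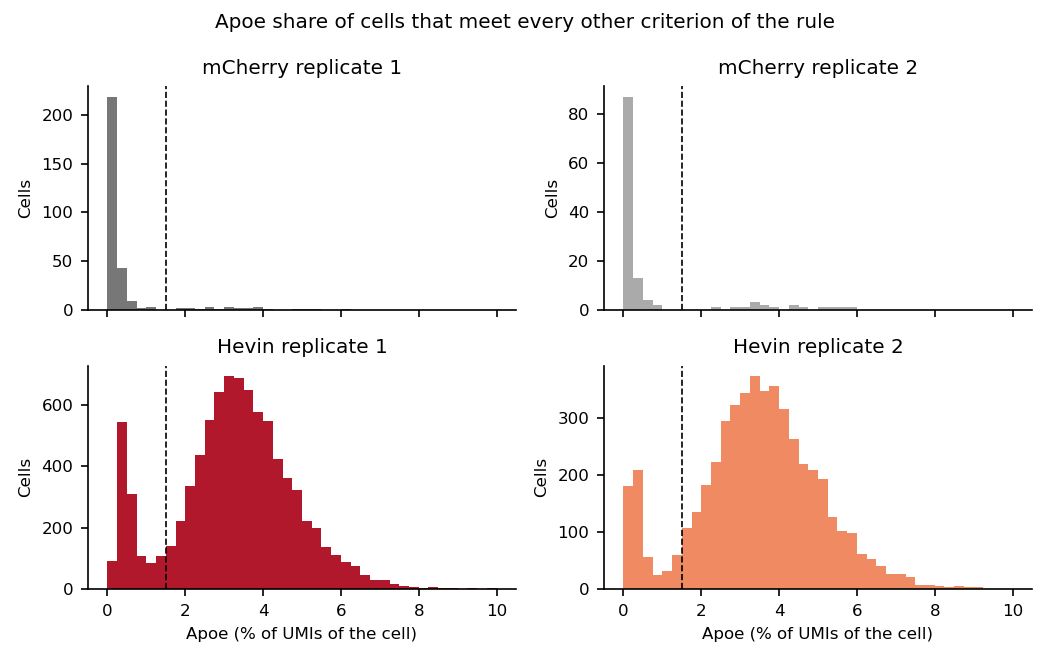
Apoe as a percentage of a cell's UMIs (x axis, bins of 0.25, the last bin also holding higher values) against the number of cells, for cells that meet every other criterion of the rule; 1 panel per library, with its own y axis. The dashed line marks the bound of 1.5%, to the right of which lie 7582 and 4484 Hevin cells and 24 and 16 mCherry cells.

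The rule did not use Clec12a, Gpr65 and Axl, but these 3 were given with the population as its markers. Their levels are therefore description and no check of the label. Clec12a, an inhibitory C-type lectin receptor, stood at 246 and 263 CPM in the population of Hevin replicates 1 and 2 and at 207 and 202 in the mCherry libraries. Gpr65, a proton-sensing receptor, reached 505 and 530.0 CPM with Hevin and 290.2 and 521 with mCherry. Axl, a receptor for phosphatidylserine bridged by Gas6, stood at 245 and 307 CPM with Hevin and at 104 and 289 with mCherry. All 3 were present in the population of every library, though Clec12a rested on 20 and 14 UMIs in mCherry replicates 1 and 2. Of the markers of other blood cells, the 6 of T and NK cells summed to 0.131 and 0.448 CPM in the population of the Hevin libraries, with Cd3e at 0 in both, the 6 of monocytes to 9.11 and 10.0 CPM, and the 6 of dendritic cells to 20.3 and 22.5 CPM. Neutrophil markers summed to 148 and 159 CPM and B cell markers to 234 and 255 CPM. In mCherry replicates 1 and 2 the monocyte markers summed to 197 and 28.9 CPM in the population, against 34.2 and 31.4 in microglia, and astrocyte markers to 3047 and 116 CPM, against 361 and 274 in microglia. Replicate 1 thus stood apart, and dendritic, T and NK cell markers were at 0 in both.

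Free RNA was judged from endothelial cells, which lack these myeloid transcripts. With Hevin their barcodes had a median of 3806.5 and 5924 UMIs, against 2642 and 3510 in the population. The same number of free UMIs per barcode is thus a smaller CPM in endothelial cells. Apoe reached 3829 and 2263 CPM in them with Hevin and 1049.6 and 799 with mCherry. Ms4a7 reached 96.6 and 53.7 CPM with Hevin and 14.6 and 16.2 with mCherry, and Clec12a reached 22.3 and 17.1 with Hevin and 2.74 and 1.75 with mCherry. All 3 were thus higher in endothelial cells of the Hevin libraries, where the population was common. Microglia of the Hevin libraries held 4744 and 3401 CPM of Apoe, 101 and 66.2 of Ms4a7 and 26.3 and 14.8 of Clec12a, near the endothelial values. With each cell thinned to 1000 UMIs, which left out 75 shallower cells of the population in Hevin replicate 1, an Ms4a7 UMI was found in 73.0% and 69.4% of its cells, in 9.17% and 5.96% of microglia and in 10.4% and 6.29% of endothelial cells. Gpr65 was found in 38.5% and 40.6% of the population, in 5.42% and 3.40% of microglia and in 4.17% and 2.52% of endothelial cells (unthinned 68.8% and 79.5%, 13.2% and 11.7%, and 19.3% and 17.0%). For these genes microglia lay close to the endothelial background, so the folds against microglia given next are measured against that background.

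**Figure D3:**
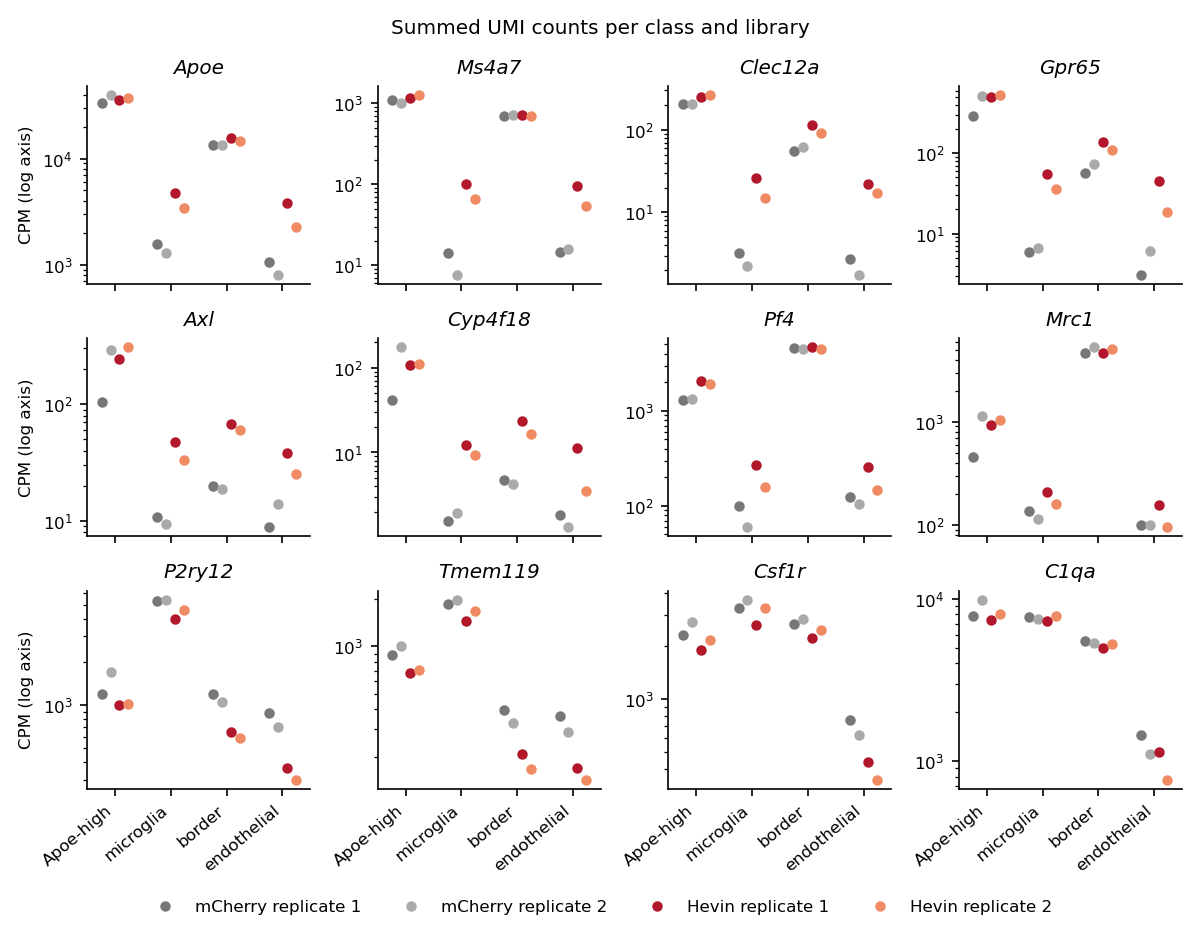
Level of 12 genes (CPM of summed UMIs, log axis, each panel with its own range) in Apoe-high macrophages, microglia, border macrophages and endothelial cells; each point is 1 library. Clec12a and Gpr65 are high in Apoe-high macrophages of all 4 libraries, and Cyp4f18 stands at 107 and 109 CPM in those of the Hevin libraries. In mCherry replicates 1 and 2 Cyp4f18 stands at 41.5 and 174 CPM in these cells and rests on 4 and 12 UMIs. For these genes microglia lie close to endothelial cells and higher in the Hevin than in the mCherry libraries.

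The first comparison asked how the population differs from microglia of the same libraries. Raw counts were summed per class in the 2 Hevin libraries and tested with edgeR's quasi-likelihood test, with the library as a term. A gene was called if its Benjamini-Hochberg adjusted p was below 0.05 and it differed at least 2-fold; ± gives the standard error of a log2 fold change, n = 2 libraries. Of 14992 genes tested, 707 were called higher in the population (4.72%) and 1001 lower (6.68%), and the median log2 fold change over all genes was -0.0034. These percentages are the background for every count below. Classes cut from the same cells by a gene rule can differ in genes that go with the rule's genes, so the counts describe the population. Xist stood at 1.13 and 1266 CPM and Y-linked Eif2s3y at 51.6 and 0.056 in the population of Hevin replicates 1 and 2. The 2 libraries thus came from different animals, and the labels do not say how many each holds. Since the library was a term, the p-values rest on how far the differences between classes varied from library to library.

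Genes are named here by the size of their fold change among called genes of at least 50 CPM, 12 in each direction, and less abundant genes with larger changes appear under the lists. Upward, Clec12a gave a log2 fold change of 3.81 ± 0.15, and Gpr65, at 54.8 and 36 CPM in microglia, gave 3.65 ± 0.12. Aoah, the enzyme that removes acyl chains from bacterial lipopolysaccharide, stood at 218 and 265 CPM against 25.5 and 17.5 in microglia (3.65 ± 0.14). Clec4n (Dectin-2, a receptor for fungal sugars) stood at 177 and 209 against 21.8 and 14.2, and Pla2g7, which hydrolyses platelet-activating factor, at 397 and 384 against 48.5 and 27.8. Cyp4f18, which inactivates leukotriene B4, stood at 107 and 109 against 12.2 and 9.46 (3.45 ± 0.10). In each of these genes both Hevin libraries lay far above both microglial values, and the 2 replicates of the population stood close together. Cmah, Mndal, Tmem221, Cybb, Pf4 and Msr1 made up the rest of these 12, with log2 fold changes from 3.30 ± 0.13 (Msr1, a scavenger receptor) to 3.43 ± 0.11 (Cmah, which makes a sialic acid).

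Promoter windows of 4 of these genes and of P2ry12, a microglial gene that was lower, are printed because the named genes are the ones on which this comparison turns. Each is the 250 bases before the RefSeq start on GRCm38.p6, 5′ to 3′ on the gene's strand, and capitals mark GAGGAA or its reverse complement TTCCTC, the core bound by the macrophage factor PU.1.
Clec12a, chr6:129349994-129350243, plus strand: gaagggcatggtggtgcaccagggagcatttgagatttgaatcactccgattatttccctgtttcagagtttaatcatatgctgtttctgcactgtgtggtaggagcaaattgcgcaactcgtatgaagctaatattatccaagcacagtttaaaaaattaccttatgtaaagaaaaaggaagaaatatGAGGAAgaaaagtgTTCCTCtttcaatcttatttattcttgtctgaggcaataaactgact
Gpr65, chr12:98268385-98268634, plus strand: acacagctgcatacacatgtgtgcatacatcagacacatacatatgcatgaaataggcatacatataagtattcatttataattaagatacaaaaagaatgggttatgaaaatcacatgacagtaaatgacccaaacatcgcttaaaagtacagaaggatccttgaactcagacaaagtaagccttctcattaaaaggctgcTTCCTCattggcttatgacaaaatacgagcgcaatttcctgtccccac
Aoah, chr13:20793863-20794112, plus strand: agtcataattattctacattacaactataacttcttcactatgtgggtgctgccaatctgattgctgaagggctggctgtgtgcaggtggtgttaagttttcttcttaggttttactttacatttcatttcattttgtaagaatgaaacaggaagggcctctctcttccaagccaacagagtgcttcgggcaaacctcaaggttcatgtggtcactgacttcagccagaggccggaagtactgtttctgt
Cyp4f18, chr8:72009627-72009876, minus strand: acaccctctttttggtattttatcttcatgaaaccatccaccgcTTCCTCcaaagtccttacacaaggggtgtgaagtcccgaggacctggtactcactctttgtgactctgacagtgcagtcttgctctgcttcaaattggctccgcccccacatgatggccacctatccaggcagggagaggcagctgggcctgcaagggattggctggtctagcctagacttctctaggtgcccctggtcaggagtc
P2ry12, chr3:59262986-59263235, minus strand: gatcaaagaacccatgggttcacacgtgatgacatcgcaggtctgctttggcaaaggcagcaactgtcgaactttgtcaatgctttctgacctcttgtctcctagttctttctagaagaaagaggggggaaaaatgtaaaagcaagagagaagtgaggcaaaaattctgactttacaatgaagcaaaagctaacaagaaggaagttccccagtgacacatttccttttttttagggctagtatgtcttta
The Clec12a window held 2 matches, those of Gpr65 and Cyp4f18 held 1 each, and those of Aoah and P2ry12 held none. Of the 12 genes named as higher than microglia, 10 had windows in the table, 12 windows in all, and 5 windows held GAGGAA on either strand (41.7%), against 7639 of 32851 windows of the same length over all genes (23.3%). For the 12 genes named as lower than microglia 1 of 7 windows held GAGGAA (14.3%), for those higher than border macrophages 2 of 9 (22.2%) and for those lower than border macrophages 5 of 8 (62.5%), so the motif did not go with one direction. In the first set, the AP-1 motif TGANTCA was in 4 of the 12 windows and in 6.75% of all windows, and the interferon-stimulated response element in 3 of them and in 2.98% of all. For the genes lower than microglia AP-1 was in 1 of 7 windows. It was in 1 of 9 for those higher than border macrophages and in 1 of 8 for those lower. The interferon element was in 0 windows of each of these sets. Both strands were searched, each motif was counted on its own even where motifs overlapped, and a match is not evidence of binding.

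Downward, Sall3, a relative of Sall1, stood at 5.71 and 5.38 CPM against 75.8 and 85.3 in microglia (-3.76 ± 0.13). Nav3, a long gene for a neuron navigator protein, stood at 37.1 and 35.1 against 378 and 537 (-3.55 ± 0.12), and Slc2a5, a fructose transporter, at 25.9 and 27.1 against 208 and 257 (-3.03 ± 0.09). The endothelial cells held 4.34 and 4.72 CPM of Sall3 and 29.7 and 54.3 of Nav3, so in the population these transcripts were at background. Gp9, Rgs7bp, Sgce, Phgdh, Atp8a2, Plpp1, Adgrg1, Csmd3 and Plcl1 completed the 12 downward, with log2 fold changes from -3.34 ± 0.10 (Gp9) to -2.95 ± 0.09 (Plcl1).

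Of 24 homeostatic microglial genes, 16 were called lower than in microglia and none higher, with a median log2 fold change of -1.21 against -0.0034 over all genes. P2ry12, the ADP receptor that guides microglial processes, stood at 994 and 1024 CPM in the population, 3971 and 4599.9 in microglia, 654 and 589.8 in border macrophages and 365 and 302 in endothelial cells (-1.99 ± 0.06 against microglia). Tmem119, a membrane protein used to mark microglia, stood at 677 and 707 against 1443 and 1670.0 (-1.07 ± 0.08). Both were thus lower than in microglia and, as CPM, above endothelial cells, whose barcodes were deeper. In Hevin replicate 1 a P2ry12 UMI was found in 62.6% of the population and 30.9% of endothelial cells after thinning. Unthinned, the values were 88.3% and 73.8%. How much of this RNA was free RNA was not tested. The 8 genes not called included Cx3cr1, the fractalkine receptor, at 1271 and 1439.6 against 2038 and 2502.5 CPM (-0.64 ± 0.08) and Fcrls, an Fc receptor-like protein, at 1473.5 and 1571 against 1541 and 1791 (-0.03 ± 0.05). Against endothelial cells of the same library, 15 of the 24 were at least 2-fold higher in both libraries in the population, and 22 in microglia; Sall3, Siglech, Sparc, Slc2a5, Golm1, Slco2b1, Ecscr, Csmd3 and Nav3 were not. Endothelial cells held 8073 and 7453 CPM of Sparc and 294 and 202 of Ecscr, genes they make themselves, so for these they are no measure of free RNA.

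Of 20 core macrophage genes 2 were called, a share near the 11.4% of all genes called in either direction: 1 was higher (Lyz2, lysozyme, 2646 and 2999 against 613 and 462 CPM, 2.49 ± 0.11) and 1 lower (Itgam, which codes for CD11b itself, 307 and 340.5 against 706 and 846, -1.16 ± 0.06). Csf1r, the receptor that keeps brain macrophages alive, stood at 1913 and 2176.5 CPM against 2623 and 3318 (-0.44 ± 0.05), and C1qa, of complement C1q, at 7434.5 and 8092 against 7258 and 7805 (0.14 ± 0.04). In all 20 the population was, as CPM, at least 2-fold above endothelial cells in both libraries.

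Among 25 transcription factors of macrophage identity, 3 were called higher and 2 lower, and 20 were not called. Runx3, a runt factor of lymphoid and dendritic lineages, stood at 46.2 and 42.1 CPM against 5.96 and 2.42 in microglia (3.64 ± 0.19). Ahr, the aryl hydrocarbon receptor, stood at 32.2 and 42 against 3.93 and 3.34 (3.5 ± 0.18), and Trps1, a GATA-type repressor, at 235 and 296 against 41 and 30.4 (3.03 ± 0.13). The 2 that were lower were Sall3 and Klf2 (8.02 and 6.1 against 20.3 and 15.6). Spi1 (PU.1) at 365 and 332 against 360.0 and 321 CPM (0.13 ± 0.06) and Irf8 (-0.00 ± 0.06), on which macrophages in general depend, were not called.

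A list of genes recorded for marrow-derived macrophages of the brain was called higher throughout, 17 of 17 with a median of 3.17. This list was drawn up with the behaviour of these cells known and is no independent evidence of its direction. Besides genes given above it held Klra2, an Ly49-type receptor, at 43.5 and 52.8 against 5.55 and 4.2 CPM (3.48 ± 0.14), Bst2 (tetherin) at 1932 and 1836 against 353 and 274 (2.70 ± 0.07) and the ion channel relatives Tmem176a (1.74 ± 0.08) and Tmem176b (1.38 ± 0.05). By contrast, of 12 monocyte genes 8 could be tested, 1 was called higher (Itga4, 2.83 ± 0.12) and 5 lower. Ccr2, the chemokine receptor of blood monocytes, stood at 5.14 and 5.54 CPM, against 20.2 and 10.7 in microglia and 3.1 and 1.18 in endothelial cells (-1.36 ± 0.24). Plac8 stood at 1.79 and 2.69 CPM and Ly6c2 at 0.959 and 0.336. The other 4, Chil3, Hp and F10 among them, were too low to test. Itga4, an integrin of blood leukocytes, stood at 73.2 and 84.8 against 13.4 and 11, with 58.9 and 52.6 in endothelial cells.

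The Ms4a genes lie together in the genome and code for membrane-spanning proteins of immune cells. Apart from Ms4a7, 7 of 8 tested were called higher and none lower. Ms4a6c stood at 1293 and 1317 CPM against 179.8 and 134 (3.17 ± 0.09), Ms4a4c at 61.9 and 71.4 against 8.8 and 7.18 (3.21 ± 0.12) and Ms4a14 at 40.1 and 50.3 against 3.93 and 3.48 (3.75 ± 0.15). The eighth, Ms4a8a, was at 1.00 and 1.12 CPM. These genes are related in sequence, and how reads shared between them were counted is not given.

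Of 23 genes of lipoprotein and lipid handling other than Apoe, 9 were called higher and 1 lower (median 0.46). The 3 neighbours of Apoe were among those that were higher: Apoc1 at 141 and 218 CPM against 22.6 and 24.9 (3.03 ± 0.11), Apoc2 at 34.1 and 39.4 against 5.82 and 2.92 (3.31 ± 0.19) and Apoc4 at 27.3 and 34.6 against 4.2 and 1.99 (3.59 ± 0.22). Since the rule chose cells by Apoe, and these genes adjoin it, this is close to what the rule used. Further away, Msr1 gave 3.30 ± 0.13, and Abca1, the cholesterol exporter, stood at 503 and 531 against 235 and 246 (1.20 ± 0.06). Lpl, lipoprotein lipase, was lower, at 10.7 and 6.78 against 45.1 and 47.1 (-2.30 ± 0.14). Npc1, Npc2 and Lipa, of lysosomal cholesterol release, were not called.

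Recognition of dying cells was mixed, with 4 of 15 called higher and 2 lower. Axl (2.92 ± 0.14) and Stab1 (893 and 954 against 382 and 346 CPM, 1.44 ± 0.06), both receptors for phosphatidylserine or its bridges, were higher, and so were Anxa5 and Cd300lf. Mertk, the Axl relative that carries out much of microglial phagocytosis, was not called at 414.5 and 517 against 571 and 674 (-0.32 ± 0.06). Pros1, a bridging ligand of Mertk, was lower at 86.1 and 94.5 against 243 and 288 (-1.45 ± 0.07), and Itgb3 was lower as well (-3.23 ± 0.15). Of 24 lysosomal genes 2 were higher (Ctsc, which activates serine proteases, 1.62 ± 0.07, and Cd63, 1.11 ± 0.06), 2 lower (Ctsl, -1.47 ± 0.06, and Ctsf, -1.01 ± 0.06) and 20 were not called.

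Interferon-response genes outside the rule were called higher in 10 of 17, and none lower, with a median of 1.47. Against border macrophages 1 of the 17 was higher and 2 lower (median -0.22), and 6 of the 17 were at least 2-fold above endothelial cells in both libraries. The largest against microglia were Ifi203 (82.4 and 87.9 against 14.2 and 6.47 CPM, 3.29 ± 0.18), Ifi207 (3.22 ± 0.13) and Ifi204 (2.74 ± 0.09), DNA-sensing proteins of the Ifi200 family that are closely related in sequence, and Bst2. Stat2, a factor that carries the interferon signal, was not called (0.66 ± 0.11), nor was Ifih1, a sensor of viral RNA (0.64 ± 0.12). The rule removed cells with more than 4 UMIs of 5 such genes, which bears on these values. Of 14 genes of MHC class I presentation, H2-K1 (1147 and 1086 against 576 and 456, 1.22 ± 0.06) and its regulator Nlrc5 (1.52 ± 0.19) were higher and 12 were not called. Of 10 class II genes, H2-DMb2 alone was called (1.24 ± 0.11); Cd74, the invariant chain, stood at 188 and 165 against 435 and 299 (-0.95 ± 0.19).

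Among 14 C-type lectins and Ly49 receptors, 7 were called higher and 1 lower (Cd209a, -1.12 ± 0.37). Mrc1, the mannose receptor, stood at 931 and 1044 CPM against 207 and 158 in microglia and 4634 and 5141 in border macrophages (2.54 ± 0.11 against microglia). None of 8 Fc receptor genes was called either way. Of 16 Toll-like receptor genes Tlr8 (7.76 and 8.74 against 0.812 and 0.498, 3.82 ± 0.32), Tlr2 (1.51 ± 0.08) and Tlr1 (1.05 ± 0.10) were higher and Tlr3 lower (-1.20 ± 0.11). Of 17 complement genes C3 (1.74 ± 0.12) and C3ar1, its anaphylatoxin receptor (264 and 330.3 against 106 and 105, 1.59 ± 0.08), were higher, Itgam was lower, and all 3 C1q chains were not called. Of 8 subunits and partners of the phagocyte NADPH oxidase only Cybb, the catalytic gp91phox chain, was called: it stood at 567 and 628 CPM against 75 and 52.1 (3.36 ± 0.12). Its partner Cyba was not called at 1346 and 1519 against 986 and 1005 (0.62 ± 0.06).

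Chemokine genes were called higher in 7 of 14 and lower in 2. Pf4 (Cxcl4) stood at 2045.5 and 1907.5 CPM against 272 and 158 (3.34 ± 0.14), Cxcl16, a membrane-bound ligand, at 361 and 368 against 72.2 and 54.1 (2.65 ± 0.10) and Ccl12, a ligand of Ccr2, at 1140.3 and 1148 against 311 and 236 (2.17 ± 0.08). Ccl9 (27.9 and 28.8 against 158 and 191, -2.5 ± 0.14) and Ccl6 (-1.65 ± 0.21) were lower. Among 10 receptors, Cxcr4 (42.5 and 40.9 against 7.18 and 2.99, 3.29 ± 0.20), Cxcr3 (2.01 ± 0.20) and Ccr1 (1.36 ± 0.07) were higher and 3 were lower, Ccr2 and Ccr6 among them. Of 18 adhesion genes Itga4, Itgal (the LFA-1 alpha chain, 2.68 ± 0.16) and Cd44 (1.57 ± 0.13) were higher, and Itgb3, Selplg (331 and 329.8 against 1802 and 2099, -2.46 ± 0.08), Cd81, Cd9 and Itgam lower. Of 8 purinergic genes P2rx4 (176 and 188 against 61.5 and 66.8, 1.61 ± 0.07) and P2ry14 were higher, and P2ry12, P2ry13 (-1.21 ± 0.07) and Adora1 lower.

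Of 22 TGF-beta and colony-stimulating factor genes 3 were called, also near the share over all genes. Csf2ra, the GM-CSF receptor alpha chain, was higher at 155 and 155 against 89.2 and 75.1 CPM (1.03 ± 0.07), and Tgfb2 and Csf1 were lower at levels under 10 CPM. Tgfbr1, the kinase receptor for TGF-beta, stood at 685 and 824 against 905 and 1088 (-0.30 ± 0.07). Of 14 eicosanoid genes Pla2g7 (3.52 ± 0.14), Cyp4f18 and Ptger4, a prostaglandin E2 receptor (3.23 ± 0.21), were higher, and Ptgs1 (cyclooxygenase 1, -1.02 ± 0.06) and Ltb4r1 (-1.24 ± 0.36) lower. Of 11 iron genes Cp (ceruloplasmin, 144 and 174 against 24.2 and 18.8, 3.04 ± 0.12), Hmox1 (1.39 ± 0.11) and the ferritin chains Fth1 (1.30 ± 0.07) and Ftl1 (1.15 ± 0.05) were higher and Tfrc, the transferrin receptor, lower (-1.22 ± 0.17). Of 20 genes of developmental and disease-associated microglia 5 were higher and 5 lower. Igf1, a growth factor, stood at 133 and 134 against 35.6 and 33 (2.08 ± 0.12), while Cd9 (-1.19 ± 0.07), Lpl and Ccl6 of the same list were lower. Of 17 immediate early genes Ier3 (1.05 ± 0.10) and Nfkbia (1.27 ± 0.06) were higher, and Fos (6.54 and 6.27 against 3.66 and 5.62 CPM) and Jun were not called. None of the 6 sex-linked genes was called.

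The second comparison set the population against border macrophages, the other Sall1-negative macrophage of the brain, in the same fit. Of 14992 genes 710 were called higher (4.74%) and 1027 lower (6.85%), with a median of 0.015 over all genes. Tmem52, a small membrane protein, stood at 93 and 101 CPM against 10.7 and 9.32 in border macrophages (3.49 ± 0.15). Mmp14, a membrane-anchored matrix protease, stood at 145 and 157 against 22.3 and 19.5 (3.07 ± 0.11), and Apoc1 at 141 and 218 against 25.4 and 26.8 (2.98 ± 0.13). Fgf13, Gal3st4, Gm2629, Npnt, Pmepa1, Cyp4f18, Cadm1, Cxcl16 and Gpr84 followed, down to 2.52 ± 0.14 (Gpr84, a receptor for medium-chain fatty acids). Several of these were high in microglia too: Gal3st4, a sulfotransferase, stood at 267 and 270.0 CPM in the population, 309 and 330.2 in microglia and 54.6 and 34.3 in border macrophages.

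What border macrophages held and the population lacked was larger in size. Cd209f, a lectin of the DC-SIGN family, stood at 4.58 and 2.69 CPM against 282 and 428 (-6.32 ± 0.19). Mmp9 stood at 1.48 and 1.34 against 102 and 132 (-6.12 ± 0.16), and Clec10a, a galactose-binding lectin, at 16.2 and 12.8 against 939 and 1183 (-5.97 ± 0.17). Timd4, Egfr, Fcna, Tslp, Mgl2, Ednrb, C4b, Rnase2a and Retnla followed, to -5.23 ± 0.50 (Retnla, where the 2 border values were 2635 and 9493 CPM and so lay far apart). The endothelial cells held 4.34 and 5.32 CPM of Cd209f and 19.2 and 8.86 of Clec10a, so both transcripts were at background in the population.

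**Figure D4:**
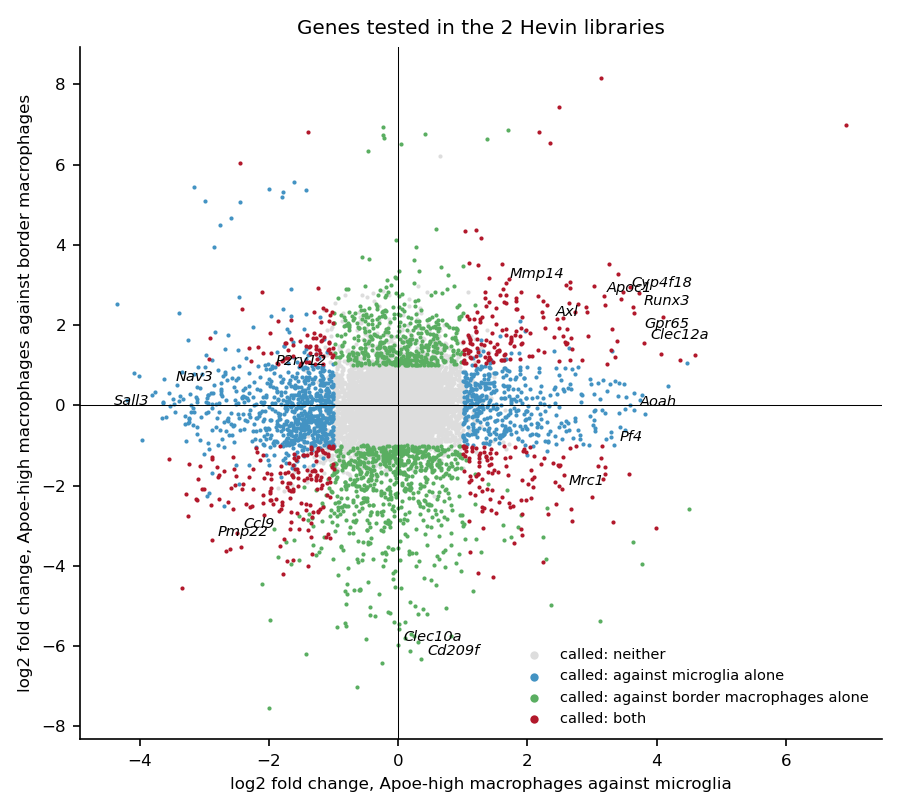
Each point is a gene tested in the 2 Hevin libraries, without the 22 genes of the rule; x, log2 fold change of Apoe-high macrophages against microglia; y, against border macrophages; colour shows in which comparison it was called. Cyp4f18, Apoc1 and Axl lie in the upper right, Mrc1 lies at 2.54 ± 0.11 and -2.10 ± 0.11, and P2ry12 at -1.99 ± 0.06 and 0.91 ± 0.06.

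Read by list, the population stood between the other 2 classes in several respects. Of 24 homeostatic microglial genes 9 were called higher than in border macrophages and none lower: Tmem119 stood at 677 and 707 CPM against 209 and 168 (2.09 ± 0.09) and Olfml3 at 882 and 879 against 220.3 and 164 (2.42 ± 0.09). Of 13 border macrophage genes outside the rule 7 were higher than in microglia, none lower, while 11 were lower than in border macrophages and none higher. The last count is partly set by the classes. The population held at most 2 UMIs of Lyve1, F13a1, Cd163 and Cbr2, and border macrophages at least 6. In the Hevin libraries cells that failed the rule by this sum alone held 3258 and 4188 CPM of Mrc1, against 931 and 1044 in the population. Mrc1 (-2.10 ± 0.11), Stab1 (-1.31 ± 0.06) and Dab2, an endocytic adaptor (-1.73 ± 0.08), lay between the 2 classes. Folr2 (13 and 11.5 CPM against 449.6 and 611, -5.20 ± 0.14) and Colec12 (14.1 and 12.9 against 498 and 535, -5.04 ± 0.11) were close to the 12.5 and 10.0 and the 11.2 and 7.11 CPM of microglia. Clec4n (0.01 ± 0.11), Lyz2 (-0.04 ± 0.10) and Aoah (-0.12 ± 0.11) were not called against border macrophages. Both comparisons share the same cells of the population, so their fold changes are not independent.

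Other lists separated the 2 macrophage kinds. Of 17 complement genes 8 were lower and 1 higher than in border macrophages: C4b stood at 8.15 and 8.23 CPM against 265 and 583 (-5.40 ± 0.22) and Cfp, properdin, at 22.2 and 26.3 against 333 and 402 (-3.72 ± 0.15), whereas C3 was higher (1.55 ± 0.17). Of 10 class II genes 5 were lower, with Cd74 at 188 and 165 against 773 and 1183 (-2.27 ± 0.19), and 3 were higher, among them the peptide-loading gene H2-DMa at 404 and 412 against 128 and 123 (1.91 ± 0.07). Of 18 adhesion genes 7 were higher, with Cd9 (2.08 ± 0.08) and Itga6 (1.55 ± 0.07) among them, and 2 lower. Of 22 TGF-beta and colony-stimulating factor genes 5 were higher, with Tgfbr1 at 685 and 824 against 217 and 202 (2.06 ± 0.08) and Smad7, an inhibitor of the pathway (2.13 ± 0.18). Of 17 genes of the marrow-derived list 9 were higher, led by Klra2 (2.82 ± 0.18), Cyp4f18 (2.65 ± 0.13), Runx3 (2.45 ± 0.22), Axl (2.32 ± 0.15) and Gpr65 (2.29 ± 0.12), and none lower. Of 8 Ms4a genes 1 was higher (Ms4a4c, 2.5 ± 0.14) and 1 lower (Ms4a8a). Igf1 (133 and 134 against 530.3 and 737, -2.03 ± 0.11) and Cd36, a scavenger receptor (20.9 and 18.4 against 247 and 244, -3.43 ± 0.08), were lower.

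**Figure D5:**
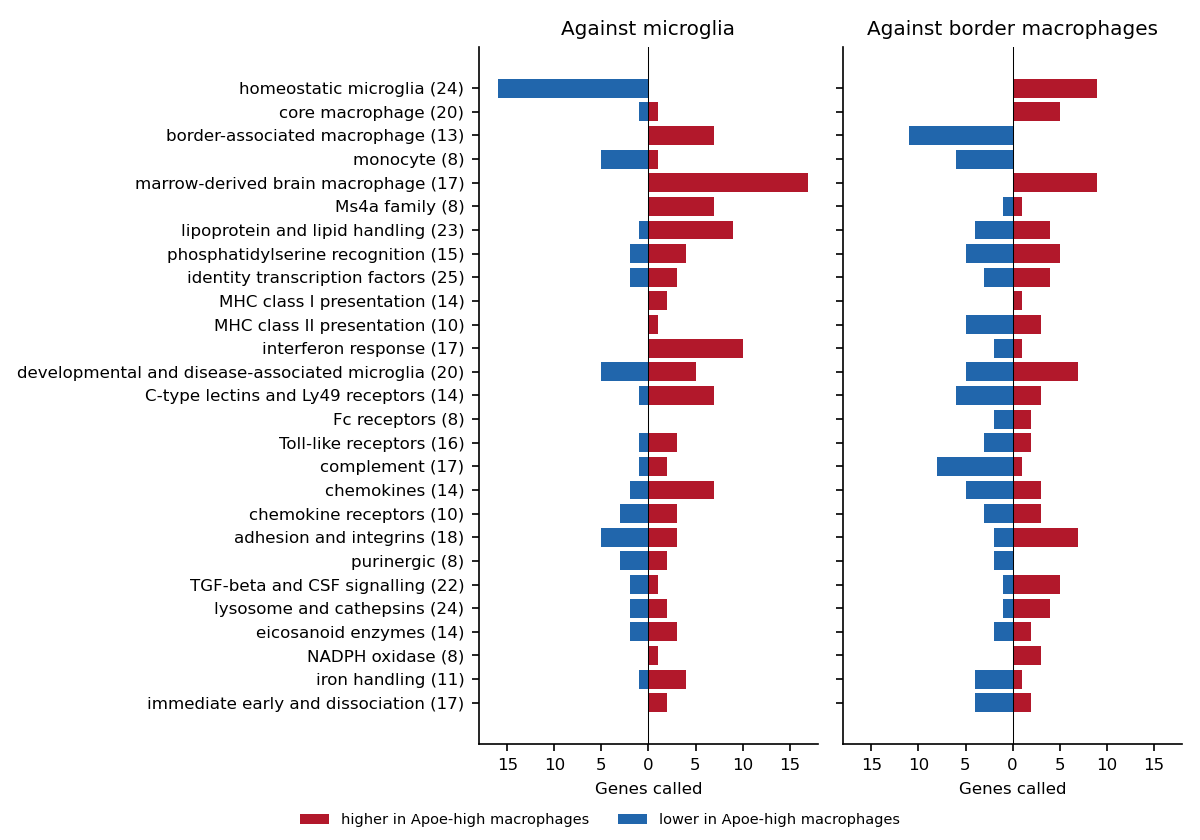
Number of genes of each list called higher (right, red) or lower (left, blue) in Apoe-high macrophages than in microglia or border macrophages of the 2 Hevin libraries; the number tested stands in brackets, and the 6 sex-linked genes, none of them called, are left out. The marrow-derived list is called higher than microglia in 17 of 17 genes, and the border macrophage list lower than border macrophages in 11 of 13. The latter count is partly set by the classes, which were cut by other border macrophage genes.

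Of 3289 genes of at least 50 CPM, 3 differed more than 2-fold between the populations of Hevin replicates 1 and 2 (0.0912%), and all 3 were sex-linked: Xist, Ddx3y at 136 and 55.1 CPM and Eif2s3y. Over 15532 genes the chi-square per gene between the replicates was 9.80, where counting alone would give about 1, so they differed by more than sampling noise. Cells were compared with each other after thinning to 1000 UMIs, by the Fano factor (variance over mean), which is 1 for pure sampling. Over 3075 genes its median was 1.04 in both libraries and 95% of genes lay below 1.19 and 1.20. Apoe itself had 4.35 and 5.04, though the rule cut its range at 1.5%. At a like relative spread the factor grows with the mean, so it ranks abundant transcripts high. The mean of Apoe was 36.9 and 38.3 UMIs per cell, that of Cd74 0.184 and 0.156. Among chemokines Ccl12 had 3.71 and 3.44, and 48.1% and 46.7% of cells held a Ccl12 UMI at this depth. Cd74 had 3.27 and 3.05, with a UMI in 14.4% and 11.8% of cells, Lyz2 had 2.67 and 3.36, and Apoc1 1.75 and 2.21. The abundant transcripts Tmsb4x (4.14 and 4.33) and Malat1 (4.05 and 3.43), found in nearly every cell type, were also among the 15 genes with the highest factors.

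The third comparison asked whether the few such cells of control cortex have the same RNA as those of Hevin cortex. The 24 and 16 cells of the mCherry libraries summed to 96495 and 69157 UMIs, against 22938306 and 17854577 in the Hevin libraries, so 3 UMIs, the limit that a count of 0 allows, were 31.1 and 43.4 CPM. Of 13071 genes tested, 24 were called higher in Hevin (0.184%) and 80 lower (0.612%), 0.796% in either direction, and the median log2 fold change over all genes was 0.30. The values below are not corrected for that shift, which is included in each of them. The same test was run on simulated data of this depth, with the same assumed dispersion for every gene. There 10% of genes changed 2-fold and 58% of those changed 4-fold reached an adjusted p below 0.05 in the right direction. The 2-fold minimum of a call was not applied.

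Clec12a differed by 0.54 ± 0.25 (adjusted p = 0.439), Gpr65 by 0.63 ± 0.20 (adjusted p = 0.111) and Axl by 0.82 ± 0.26 (adjusted p = 0.0973). Runx3 rested on 4 and 1 UMIs in the mCherry libraries, Klra2 on 4 and 0 and Cyp4f18 on 4 and 12. P2ry12 was at 1202 and 1706 CPM with mCherry against 994 and 1024 with Hevin (-0.28 ± 0.16, adjusted p = 0.576), and Mrc1 at 456 and 1142 against 931 and 1044 (0.59 ± 0.17, adjusted p = 0.0606). For Pf4 (1295 and 1345 against 2045.5 and 1907.5, 0.81 ± 0.16, adjusted p = 5.7e-05) and Bst2 (1451 and 1504 against 1932 and 1836, 0.58 ± 0.15, adjusted p = 0.0188) the adjusted p was below 0.05 and the difference under 2-fold. A p above the threshold at this depth does not show that the cells are alike. None of the 17 genes of the marrow-derived list and none of the 20 core macrophage genes was called, and 3 of 24 homeostatic microglial genes were lower in Hevin.

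Most calls rested on very few molecules. The 5 named as higher, Eif4ebp1 (a brake on translation), Nfatc1, Foxo3, Oxa1l and Pdcd6ip, had 0 to 3 UMIs in each mCherry library. Eif4ebp1 had 0 and 1 UMI there, and 60.4 and 56.3 CPM in the Hevin libraries. Of the 80 called lower, 72 had under 4 UMIs in 1 of the mCherry libraries. The 5 named as lower, Acsl6, Ntsr2, Cldn10, Gpr37l1 and Aqp4, are transcripts of astrocytes. Aqp4, the water channel of astrocyte endfeet, had 15 UMIs in mCherry replicate 1 and 0 in replicate 2. Of 24 cells in mCherry replicate 1, 2 carried 156 and 118 UMIs of 6 astrocyte markers (Slc1a2, Slc1a3, Aqp4, Gja1, Aldoc and Gfap) out of 294 in all, whereas replicate 2 had 8 in all. In the Hevin libraries 15 and 15 cells carried at least 5 such UMIs. Ccr2, with 16 UMIs in mCherry replicate 1 and none in replicate 2, was also called lower (-3.92 ± 0.58). When barcodes with at least 5 astrocyte UMIs were left out, a choice made after seeing the data, no gene was called higher and 6 lower, and without mCherry replicate 1 there were 2 and 6.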

How the data were processed

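The deposited files hold raw UMI counts per gene and barcode, which the authors made from PIPseq v4.0PLUS libraries. The submitters' processing notes list mm10, and no source used here names an aligner or says whether strand was used. Barcodes with at least 500 UMIs and at most 10% mitochondrial UMIs were kept (61371 of 61686), and no doublet caller was run. The members and the gene lists were chosen with earlier results of these data known. Counts were summed per library and class and tested with edgeR 4.0.16 (TMM scaling, quasi-likelihood test, R 4.3.3). The class comparisons used the 2 Hevin libraries with the library as a term, and the treatment comparison used the 4 sums of Apoe-high macrophages. The 22 rule genes were left out of all counts of calls. Genes were named by rank of fold change among called genes of at least 50 CPM, 12 each way for the classes and 5 for the treatments. Levels are plain CPM, and folds are TMM-scaled. DESeq2 1.42.0, other filters and bounds, thinning and left-out libraries were alternatives. In simulated counts, with the same assumed dispersion for every gene, the test recovered 87% of 2-fold and 100% of 4-fold changes against microglia. Recovery meant an adjusted p below 0.05 in the right direction, without the 2-fold minimum of a call. The median absolute log2 fold change of the genes changed 2-fold was 0.946, under that minimum. Gene windows are from RefSeq, GRCm38.p6. With replicate numbers shared by the treatments, deviations of same-numbered libraries correlated at 0.163 over 2 pairs, too few to treat the numbers as pairs.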

Additional observations from a re-analysis of the deposited data

How the results depend on the processing

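Against microglia, the counts of 707 higher and 1001 lower genes became 360 and 335 with genes of at least 10 CPM, and 583 lower with cells thinned to 1000 UMIs. Against border macrophages, 710 and 1027 became 375 and 470 at 10 CPM. Fewer genes were tested there. A fit of all 4 libraries used only sums of at least 100 cells, so its population sums came from the Hevin libraries alone. Leaving out mCherry replicate 1 or 2 there gave 738 and 727 higher and 1010 and 985 lower against microglia. Against border macrophages it gave 709 and 667 higher and 1099 and 1123 lower. Leaving out a Hevin library left a single population sum and gave fewer calls in every count. Without the library term (no replicate block) the counts were 630 and 846, and 652 and 920. The treatment comparison was less steady. Its 24 higher and 80 lower genes became 7 and 30 with a replicate block, 4 higher with DESeq2 size factors, and 0 higher and 118 lower with the DESeq2 test, where edgeR had 1273 genes at an unadjusted p under 0.05. Leaving out 1 library gave 0 to 29 higher and 6 to 115 lower genes: 2 and 6 without mCherry replicate 1, 1 and 11 without Hevin replicate 1, and 0 and 12 without Hevin replicate 2. Without barcodes with 5 or more astrocyte marker UMIs, an alternative chosen after seeing the data, there were 0 and 6. Against 0 UMIs in the remaining control library, and so with no bound, the sign turned without mCherry replicate 1 for Gpr37l1 (8.16), Acsl6 (7.84), Ntsr2 (8.96), Aqp4 (8.43) and Ccr2 (9.19), adjusted p 0.919 by edgeR (without mCherry replicate 2 the values were -5.44, -5.86, -5.69, -5.38 and -4.71), and without the astrocyte barcodes for Gpr37l1 (7.39) and Aqp4 (7.65), adjusted p 0.788.

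The share of Apoe-high macrophages was 2.20% and 2.45% (mCherry) and 42.7% and 38.9% (Hevin) without the 4 upper limits, and 0.269%, 0.277%, 30.8% and 26.7% when cells were thinned to 1000 UMIs before the rule. In Hevin replicates 1 and 2 it was 32.8% and 29.4% with an Apoe bound of 2.5%, 29.8% and 30.8% with at least 2 Ms4a7 UMIs, and 41.5% and 37.8% with no limit on Sall1. In Hevin replicate 1 it was 39.6% with a bound of 1% and 43.7% among cells above a stricter UMI minimum. The cause of these changes was not tested. The 40 control cells limit the treatment comparison.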

Other observations

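Some genes were called in the same direction against both microglia and border macrophages. Of 14992 genes tested, 163 were higher in both and 164 lower in both, and 12058 were called in neither. Over all genes 4.72% were called higher and 6.68% lower against microglia, and 4.74% and 6.85% against border macrophages. The comparisons share the cells of the population, so these counts are a description, and the genes below were chosen after their values were seen. Apoc1, an apolipoprotein, stood at 141 and 218 CPM in the population of the Hevin libraries, 22.6 and 24.9 in microglia and 25.4 and 26.8 in border macrophages. Mmp14 stood at 145 and 157 CPM, with 26.7 and 25 in microglia and 22.3 and 19.5 in border macrophages. Slamf9, a receptor of the SLAM family, stood at 146 and 149 CPM, with 48.2 and 37.2 in microglia and 37.8 and 36.4 in border macrophages. Fzd7, a Wnt receptor, stood at 52.5 and 64.3 CPM, with 15 and 16.9 in microglia and 15.8 and 20.7 in border macrophages.

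Lower than both were Pmp22, a membrane protein also of myelin, at 21.8 and 22 CPM against 156 and 192 in microglia and 245 and 277 in border macrophages, and Nrp2, a semaphorin receptor, at 14 and 17.4 CPM against 38.9 and 51.3 in microglia and 91.4 and 109 in border macrophages. Naaa, which hydrolyses N-acylethanolamines, stood at 19.9 and 18.1 CPM against 90.7 and 85.1 in microglia and 83.5 and 124 in border macrophages. Of the same 14992 genes, a further 115 were higher than in microglia and lower than in border macrophages. Another 69 were lower than in microglia and higher than in border macrophages.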
